A study of Mus musculus with 61 samples.

Results

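Lacrimal glands of control male NOD mice were compared between week 16 and week 12 of age, the late stretch of the gland disease of this strain. The comparison used 15 of the 61 arrays of the series, 8 from week 16 and 7 from week 12, chosen by titles that name the lacrimal gland, a control and the week. Untreated mice gave 3 arrays at week 12 and 4 at week 16, and mice given MOPC-21 gave 4 arrays at each week. MOPC-21 is a mouse IgG1 antibody used as the control for the LTBR-Ig fusion protein, and it was injected into the peritoneum weekly from week 8, so that MOPC-21 mice had 4 weeks of injections at week 12 and 8 weeks at week 16. All the mice were inbred NOD males, none of these groups carried a transgene or received LTBR-Ig, and the methods describe each lacrimal sample as the glands of 1 mouse combined. Both kinds of control were pooled within a week.

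NOD mice are prone to autoimmunity, and in males the lacrimal gland is a main target outside the pancreas. Lymphocytes gather in the gland in clusters rich in B cells, with high endothelial venules, the vessels through which lymphocytes leave the blood. The paper reports that separate B and T cell areas, as in a lymph node, were uncommon at the ages compared here. It found them often only in much older mice. It describes the source of the chemokine CXCL13 in these glands as still under study. The gland itself is built of acinar cells that make tear proteins in bulk, of ducts, and of plasma cells that supply IgA to the tear film.

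The arrays carried lacrimal transcripts, and some carried salivary ones. Obp1a, an odorant-binding protein of the lacrimal acinus, lay between 15.32 and 16.08 on the log2 scale of the deposited values in all 15 arrays, whereas its mean in salivary glands of the same weeks was between 2.86 and 3.07. All 14 skeletal muscle markers lay below a log2 value of 4, the floor taken for detection. Amy1, which encodes salivary amylase, lay above 8 in 4 arrays, at 12.49 in untreated week 12 replicate 2, 13.87 in MOPC-21 week 12 replicate 1, and 14.39 and 15.31 in untreated week 16 replicates 1 and 2. Between 38.7% and 41.4% of the 45101 probe sets lay above the floor on each array. The first principal component held 55.7% of the variance, with B cell transcripts such as Fcrl1, Spib and Cxcr5 among its highest loadings and Bpifa2, Mucl1 and Amy1 among its lowest. The 4 arrays with Amy1 above 8 did not stand together on it, from -65.9 to 7.92, and were the highest on the second component, from 10.1 to 34.7. On the first component the week 12 arrays spread from -71.1 to 26.6 and the week 16 arrays from -9.7 to 76.7. Untreated week 12 replicates 2 and 3 were the lowest, at -65.9 and -71.1, and replicate 4 of each treatment at week 12, at 21.6 and 26.6, lay among the week 16 arrays. In whole glands a lower transcript level can mean fewer cells of a type, less RNA in each cell or a larger share of RNA from other cells. These cannot be told apart.

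Few transcripts passed the test between the weeks, and those that did were a small set of rises and the falls of globin transcripts and Vapb. A call here needs both a difference of means of at least 2-fold and a limma adjusted p under 0.05. Of 19964 probe sets tested, 10 were called, which is 0.0501%, with 5 higher at week 16 (0.025%) and 5 lower (0.025%). By gene, with the brightest probe set of each, 2 of 10067 were called (0.0199%), namely Plaur, which rose, and Vapb, which fell. At any fold, 33 probe sets were higher and 6 lower at an adjusted p under 0.05. Many more differed by size alone, since 279 probe sets had a mean 2-fold or more higher at week 16 and 21 a mean 2-fold or more lower. Of all probe sets, 72 had every week 16 array above every week 12 array (0.361%) and 46 had every week 16 array below (0.23%). The changes were not centred on 0, because 59.4% of probe sets had the higher mean at week 16 and the median log2 change over all genes was 0.05. The scaling of the arrays bears on this, because centring each array on its median moved the median change of all probe sets from 0.06 to -0.07 and the calls to 2 higher and 5 lower, and quantile normalization moved them to -0.03 and to 2 higher and 4 lower.

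**Figure D1:**
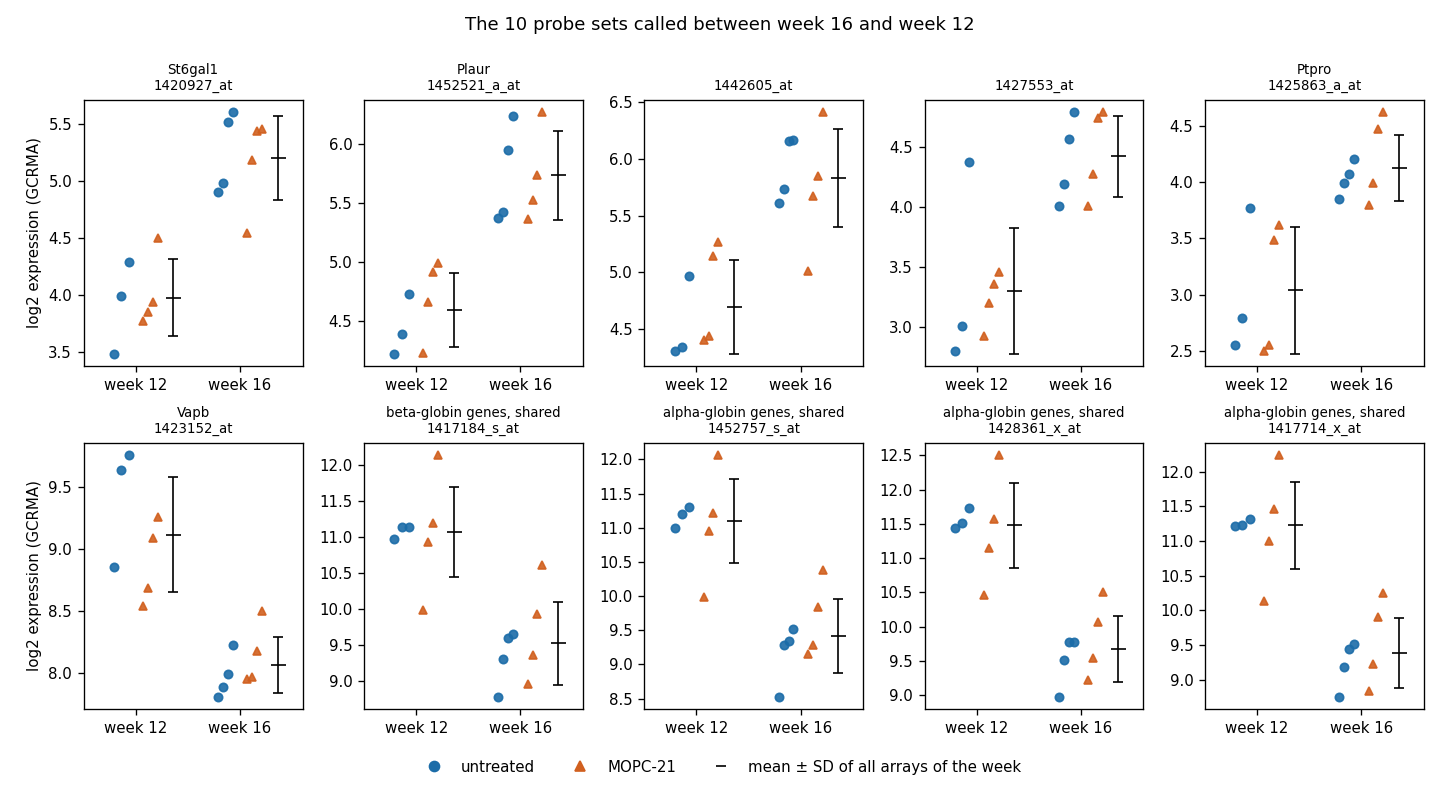
Log2 expression (GCRMA) of the 10 probe sets called between the weeks, with a point for each of the 7 week 12 arrays and 8 week 16 arrays, sorted by value within a group, and the mean ± SD of each week as a bar. St6gal1, Plaur, Ptpro and Vapb do not overlap between the weeks, and the 4 globin probe sets overlap by MOPC-21 replicate 3 of week 12.

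Plaur encodes the receptor that holds urokinase, a plasminogen-activating protease, at the surface of macrophages and other migrating cells. Its log2 level ran from 4.22 through a median of 4.66 to 5.0 at week 12 and from 5.36 through 5.63 to 6.28 at week 16. No week 12 array reached the lowest week 16 array. The rise was 1.15 on the log2 scale (SE 0.17), a fold of 2.21, with a limma adjusted p of 0.0143. It measured 1.31 in untreated mice and 1.02 in mice given MOPC-21. In untreated mice Plaur stood at 3.97 ± 0.21 (SD, n = 4) at week 8 and 4.72 ± 0.55 (n = 4) at week 14, so the week 14 arrays were nearer to week 12 than to week 16.

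St6gal1 encodes the sialyltransferase that adds alpha-2,6-linked sialic acid to glycoproteins, the structure that CD22 binds on B cells. Probe set 1420927_at ran from 3.49 through 3.94 to 4.50 at week 12 and from 4.55 through 5.31 to 5.61 at week 16, so the groups were apart by a narrow margin. It rose by 1.23 (SE 0.17), 2.34-fold, with a limma adjusted p of 0.0103. The brighter St6gal1 probe set, 1420928_at, had means of 7.39 and 8.57 and a similar difference of 1.19, but its groups overlapped and its adjusted p was 0.0634. At week 12 several arrays of 1420927_at were at or under the floor of 4, which can compress its fold.

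Ptpro encodes a receptor-type tyrosine phosphatase. Its probe set 1425863_a_at ran from 2.50 through 2.79 to 3.77 at week 12, all under the floor, and from 3.80 through 4.03 to 4.62 at week 16. The difference was 1.09 (SE 0.21, limma adjusted p = 0.049) with little space between the groups. This probe set passed the filter on low values only through week 16, where it was higher, and it was not tested where the filter had to be met in each of the weeks. A brighter probe set, 1417676_a_at, differed by 1.24 between means of 4.15 and 5.39 with an adjusted p of 0.0719. The remaining rises were those of 1442605_at, by 1.13 (adjusted p = 0.035), and 1427553_at, by 1.12 (adjusted p = 0.0465), which the annotation used here does not name. Each of these had 1 or more week 12 arrays within the range of week 16. With 1 week 12 array above 4, 1427553_at also passed the filter only through week 16. With the filter met in each of the weeks, 8 probe sets were called, 3 higher and 5 lower, without Ptpro and 1427553_at.

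The clearest falls were those of globin transcripts, the messages of red blood cells and their precursors. None of the probe sets named a single globin gene: 3 are shared by the alpha-globin genes Hba-a1 and Hba-a2, and 1 by the beta-globin genes Hbb-bt, Hbb-bs, Hbb-b1 and Hbb-b2. The change of each globin gene cannot be told apart from that of the others on its probe sets. To show the genes these probe sets stand for, the 120 bases before the start of 3 of them are printed, from RefSeq on GRCm38.p6, as the letters lie on the gene's own strand. They are Hba-a1 at chr11:32283552-32283671 on the plus strand, Hbb-bs at chr7:103827929-103828048 and Hbb-bt at chr7:103813924-103814043 on the minus strand. Capitals mark CCAAT and CACCC on either strand.
Hba-a1: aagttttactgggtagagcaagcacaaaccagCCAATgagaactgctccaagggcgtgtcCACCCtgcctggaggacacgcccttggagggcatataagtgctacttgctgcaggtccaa
Hbb-bs: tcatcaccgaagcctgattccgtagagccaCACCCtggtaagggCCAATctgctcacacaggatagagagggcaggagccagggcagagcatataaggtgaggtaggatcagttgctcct
Hbb-bt: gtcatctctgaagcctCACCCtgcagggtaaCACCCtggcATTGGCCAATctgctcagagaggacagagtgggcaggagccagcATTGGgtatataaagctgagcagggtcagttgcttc
Each of the 3 windows held both motifs. Of all 32851 promoter windows of that length, 21.3% held CCAAT and 31.7% held CACCC, so the matches are a description of these windows and no more.

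The alpha-globin probe set 1417714_x_at ran from 10.13 through 11.23 to 12.24 at week 12 and from 8.75 through 9.33 to 10.25 at week 16. The groups overlapped by 1 array of week 12, MOPC-21 replicate 3, which was the lowest week 12 array in all 4 globin probe sets. It fell by 1.84 on the log2 scale (SE 0.26), 3.58-fold, with a limma adjusted p of 0.0103. The alpha-globin probe set 1428361_x_at fell by 1.81 (adjusted p = 0.0103) and 1452757_s_at by 1.69 (adjusted p = 0.0196), and the beta-globin probe set 1417184_s_at fell by 1.55 (SE 0.28, adjusted p = 0.0372). Within the pooled arrays that gave the call, 1417714_x_at was lower by a log2 value of 2.03 in untreated and 1.65 in MOPC-21 mice.

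Over the course, the alpha-globin probe set 1417714_x_at stood at 10.73 ± 0.37 at week 8, 11.25 ± 0.05 (n = 3) at week 12, 8.84 ± 0.72 at week 14 and 9.22 ± 0.34 at week 16 in untreated mice. The week 14 level was thus already as low as that of week 16. Among other blood cell markers, Alas2, the first enzyme of erythroid haem synthesis, ran from 4.21 to 5.06 at week 12 and from 3.63 to 4.21 at week 16 without overlap, a difference of -0.48 with an adjusted p of 0.0801 that is not called. Pf4, a platelet chemokine, was at 5.22 to 6.74 and 6.08 to 7.34 and differed by 0.49 in the other direction (adjusted p = 0.172). Of the 10 blood markers listed, 5 had a probe set of their own and these 2 passed the filter on low values. The summed level of the 5, on the log2 scale, ran from 6.35 to 7.24 at week 12 and from 6.74 to 7.63 at week 16. Pf4 had the higher mean of the 2 tested, so this sum leans on Pf4 and is not a measure of red cells alone. Whether the blood left in the dissected glands differed between the weeks was not tested.

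Vapb encodes a membrane protein of the endoplasmic reticulum that tethers it to other organelles. Its log2 level ran from 8.54 through 9.09 to 9.76 at week 12 and from 7.81 through 7.98 to 8.50 at week 16 without overlap. It fell by 1.05 (SE 0.17), 2.07-fold, with a limma adjusted p of 0.0196. Probe sets of this gene disagreed, because 1436079_s_at and 1458501_at differed by -0.09 and 0.01. The fall measured 1.44 in untreated mice and 0.74 in MOPC-21 mice, a difference that did not pass its own test. In untreated mice Vapb stood at 9.08 ± 0.37 at week 8 and 8.38 ± 0.62 at week 14.

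**Figure D2:**
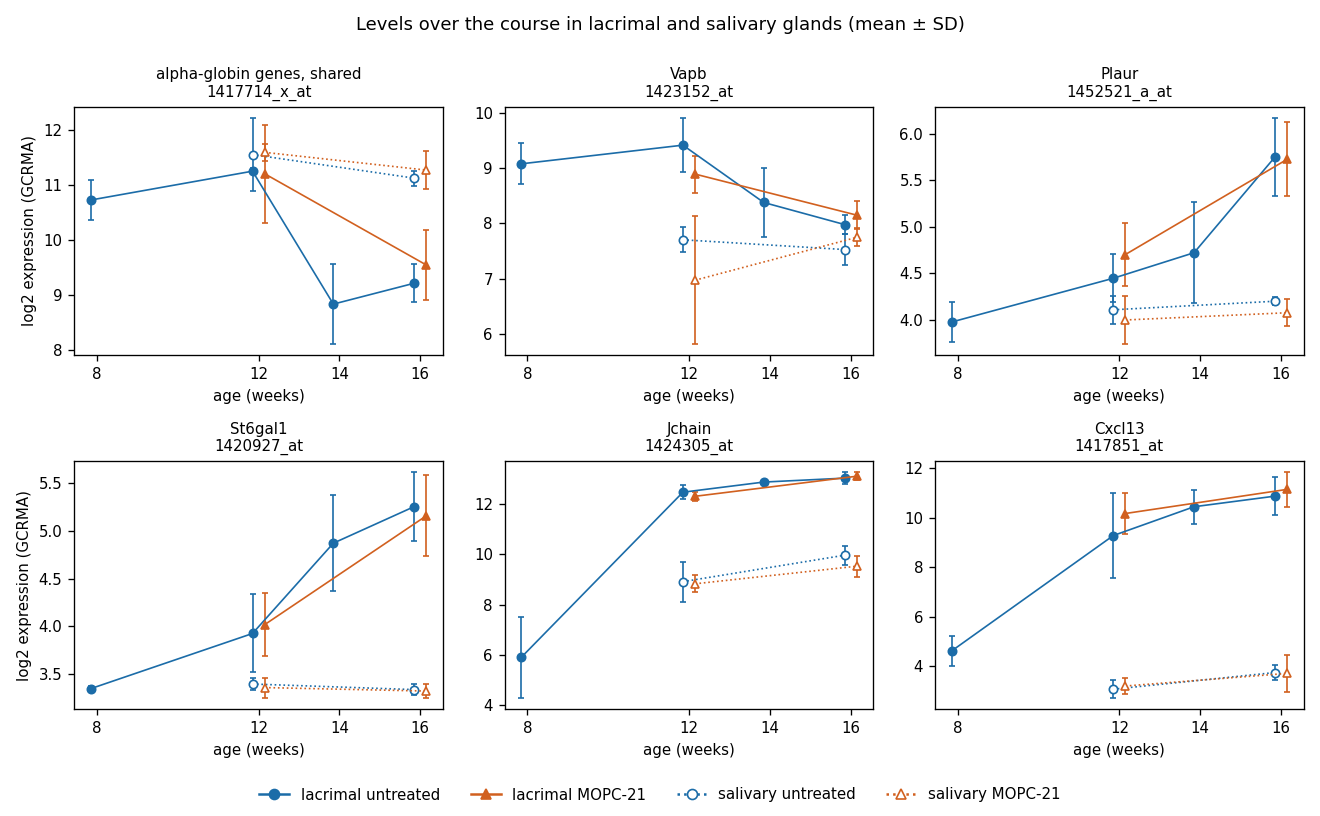
Mean ± SD of log2 expression (GCRMA) against age in weeks for 6 probe sets, in lacrimal (filled, solid lines) and salivary (open, dotted lines) glands of untreated (circles) and MOPC-21 (triangles) mice. Alpha-globin and Vapb are lower in lacrimal glands at week 16 than at week 12, Plaur and St6gal1 are higher, and Jchain and Cxcl13 take most of their climb before week 12.

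Most antibody transcripts had a higher mean at week 16, by amounts that differed from gene to gene. Jchain, which encodes the chain that joins IgA and IgM into polymers, ran from 12.15 through 12.32 to 12.80 at week 12 and from 12.84 through 13.03 to 13.36 at week 16. The groups did not overlap, and the difference of 0.69 (SE 0.10, 1.61-fold) had a limma adjusted p of 0.0103, under the 2-fold limit of a call. Igkv8-30, a kappa variable segment whose probe set may also bind related segments, ran from 14.53 to 14.90 and from 14.99 to 15.50, higher by 0.50 (adjusted p = 0.0196), also without overlap. Of the 14 immunoglobulin genes tested none was called, 13 had the higher mean at week 16, and their median log2 change was 0.62 against 0.05 over all genes. Igha, the IgA heavy chain and the brightest of them, differed by 0.23 between medians of 14.92 and 15.18 (adjusted p = 0.0714), and Ighm, the IgM heavy chain, by 0.36 (adjusted p = 0.355). Less bright Igha probe sets, 1425763_x_at and 1429381_x_at, differed by 0.24 (limma adjusted p = 0.107) and 0.42 (adjusted p = 0.0599). The largest difference was that of Igkv6-14, 1.20 (adjusted p = 0.0821). In untreated mice Jchain stood at 5.90 ± 1.63 at week 8 and 12.47 ± 0.28 at week 12, so the span between weeks 12 and 16 was a small part of its course.

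The plasma cell list divided within itself. None of its 12 genes tested was called, 5 were higher and 7 lower, and the median log2 change was -0.05 while the mean level of the list went from 9.01 ± 0.09 (n = 7) to 9.22 ± 0.11 (n = 8). Higher at week 16 beside Jchain were the transcription factors of the plasma cell programme, Irf4 by 1.07 (adjusted p = 0.0697) and Prdm1 by 0.73 (adjusted p = 0.0697), and the lineage proteins Slamf7 by 0.87 and Mzb1 by 0.88. Lower were genes of the secretory pathway that acinar cells share, among them Derl3, which helps to clear misfolded proteins, by -0.57 (adjusted p = 0.0848), Fkbp11 by -0.42 and Creld2 by -0.35. Xbp1, the driver of secretory capacity in both cell types, was level at medians of 12.90 and 12.84.

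B cell transcripts had the largest median change of the 30 lists tested, and no member was called, where 0.0199% of all genes were. At that share the lack of calls in any of the lists says little about its members. All 20 genes tested had the higher mean at week 16 with a median log2 change of 1.06, and 13 of the 20 reached a 2-fold difference of means, where 1.48% of all genes did. Ms4a1, which encodes CD20, ran from 7.26 through 9.02 to 10.31 at week 12 and from 9.09 through 9.80 to 11.01 at week 16. The week 12 arrays were widely spread and overlapped most of week 16, and the difference of 0.99 (SE 0.42) had a limma adjusted p of 0.14. Btk, the kinase downstream of the B cell receptor, showed the largest difference, 1.39 (SE 0.45, adjusted p = 0.086), between ranges of 2.75 to 6.21 and 5.04 to 6.92. Fcgr2b, the inhibitory Fc receptor of B cells and follicular dendritic cells, was higher by 1.38 (adjusted p = 0.102). The mean level of the list ran from 5.84 to 8.64 at week 12 and from 7.58 to 9.38 at week 16. Untreated week 12 replicates 2 and 3, at 6.04 and 5.84, were the lowest of the 15 arrays, and replicate 4 of either treatment at week 12, at 8.60 and 8.64, exceeded 6 of the 8 week 16 arrays. The list median was 1.52 in untreated mice, 0.70 in MOPC-21 mice and 0.48 without untreated week 12 replicates 2 and 3.

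T cell lists lay in the same direction. All 16 T cell genes tested had the higher mean, with a median log2 change of 0.78 and none called. Cd4, the co-receptor of helper T cells, differed most, by 1.23 (adjusted p = 0.113), and Cd3e, a signalling chain of the T cell receptor, ran from 3.72 through 5.09 to 5.52 and from 4.73 through 5.39 to 5.90, a difference of 0.60 (adjusted p = 0.129). All 10 regulatory, helper and checkpoint genes tested had the higher mean (median 0.79), led by Btla, an inhibitory receptor, with 1.12 (adjusted p = 0.089). All 12 cytotoxic lymphocyte genes tested had the higher mean (median 0.83). Among them Klrk1, which encodes the activating receptor NKG2D, differed by 1.18 (SE 0.31, adjusted p = 0.0697) and Ccl5, a chemokine of effector T cells, by 0.98 (adjusted p = 0.0848). Ptprc, which encodes CD45 and is carried by all leukocytes, ran from 9.88 through 11.19 to 11.93 and from 11.28 through 11.82 to 12.58, a difference of 0.87 (adjusted p = 0.0911).

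**Figure D3:**
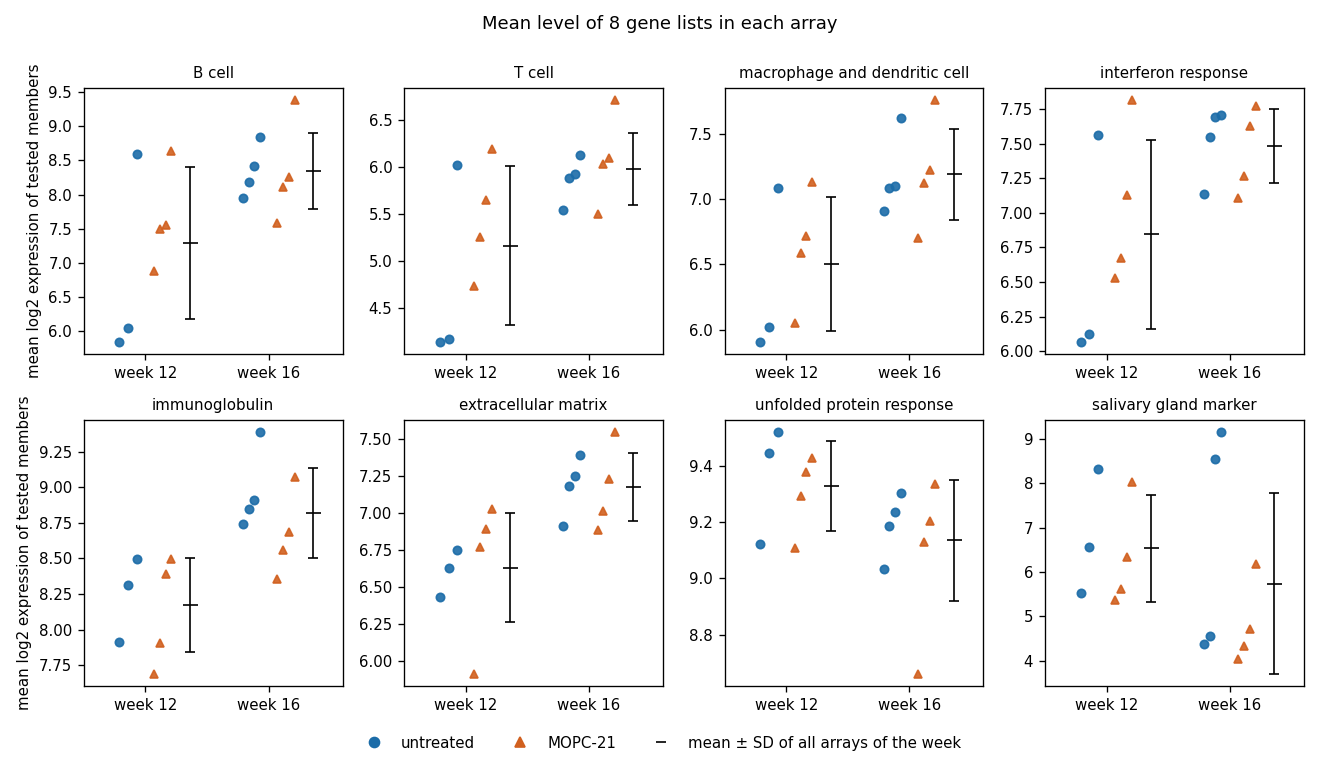
Mean log2 expression of the tested members of 8 gene lists in each array at week 12 (7 arrays) and week 16 (8 arrays), with the mean ± SD of each week. B cell, T cell, macrophage and interferon lists spread widely at week 12 and overlap with week 16, and the salivary list is high in 2 untreated arrays of week 16.

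Genes that place lymphocytes in tissue were higher without a call. Cxcl13, the chemokine that draws B cells into follicles, ran from 8.27 through 9.91 to 11.31 at week 12 and from 10.09 through 10.79 to 12.12 at week 16, and its difference of 1.22 (SE 0.46) had a limma adjusted p of 0.107. A further Cxcl13 probe set, 1448859_at, gave 1.15. In untreated mice Cxcl13 was at 4.62 ± 0.60 at week 8 and 10.44 ± 0.69 at week 14. Its receptor gene Cxcr5 differed by 1.01 (adjusted p = 0.208) and Ccr7, the receptor that guides T cells and dendritic cells, by 0.91 (adjusted p = 0.162). Of 7 homeostatic chemokine genes tested 6 had the higher mean (median 0.81). Glycam1, a mucin that carries the L-selectin ligand on these venules, ran from 5.50 through 7.03 to 7.42 and from 6.72 through 7.26 to 9.19, a difference of 0.95 (adjusted p = 0.141). Itgb7, the integrin chain that binds mucosal addressin, differed most of the vessel and adhesion genes, by 1.40 (SE 0.37, adjusted p = 0.0697), and Vcam1, an adhesion molecule of activated endothelium, by 0.83 (adjusted p = 0.138). In that list 12 of 13 had the higher mean (median 0.66). The lymphotoxin and BAFF list had 11 of 12 higher (median 0.55), with Tnfrsf13b, the BAFF receptor TACI, at 1.09 (adjusted p = 0.0836), the ligand gene Ltb at 0.65 (adjusted p = 0.281) and Ltbr, its receptor, at -0.07.

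Germinal centre genes gave a mixed picture, with 5 of 7 higher and a median of 0.58. Bcl6, the transcription factor of germinal centre B cells, differed by -0.48 (adjusted p = 0.128) and Mfge8, a product of follicular dendritic cells that epithelium also makes, by -0.14, whereas Il21, the cytokine of follicular helper T cells, differed by 0.82 (adjusted p = 0.165).

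Macrophage and dendritic cell genes had the higher mean in all 23 tested (median 0.71). Cd68, a lysosomal protein of macrophages, ran from 5.65 through 6.79 to 7.62 and from 7.18 through 7.49 to 8.55, a difference of 1.10 (SE 0.32, adjusted p = 0.0791). Nod1, a sensor of bacterial peptidoglycan, did not overlap between ranges of 3.63 to 4.69 and 4.70 to 5.32 and was higher by 0.88 (SE 0.16, adjusted p = 0.0323), under 2-fold. Among 18 inflammatory chemokines and receptors 17 had the higher mean (median 0.54), with Ccl8 at 1.07 (adjusted p = 0.0846) and Ccl12 at 1.22 (adjusted p = 0.0988), both ligands that attract monocytes. All 24 interferon response genes tested had the higher mean (median 0.63), Oas2, an antiviral synthetase, by 1.10 (SE 0.28, adjusted p = 0.0697). Antigen presentation followed, with all 10 MHC class II genes (median 0.69, H2-Ob by 1.21) and 12 of 14 MHC class I genes (median 0.49, Tap2 by 0.89) higher. In the complement list 7 of 8 were higher (median 0.69). Cfb, factor B of the alternative pathway, differed by 1.31 (adjusted p = 0.0942), and C1s1, a protease of the classical pathway, by -1.46 (adjusted p = 0.196) with arrays from 2.94 to 7.20 at week 16.

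All 18 extracellular matrix genes tested had the higher mean (median 0.61), and the list medians of untreated and MOPC-21 mice, 0.56 and 0.60, were close. Col5a2, a minor fibrillar collagen chain, ran from 6.05 through 6.56 to 6.92 and from 6.72 through 7.22 to 7.40, higher by 0.67 (SE 0.14, adjusted p = 0.0569). Col6a3, a collagen of the pericellular matrix, differed by 0.75 and Mmp2, a gelatinase, by 0.81, each with an adjusted p of 0.0697. Itih5, a hyaluronan-binding matrix protein, did not overlap between 6.88 to 7.64 and 7.69 to 8.24 and was higher by 0.63 (SE 0.11, adjusted p = 0.0323). All 13 cathepsin and protease inhibitor genes had the higher mean (median 0.50), Ctse by 1.02 (adjusted p = 0.08). Of 18 cell cycle genes 16 were higher (median 0.50), Top2a, the topoisomerase of dividing cells, by 0.84 (adjusted p = 0.0889).

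**Figure D4:**
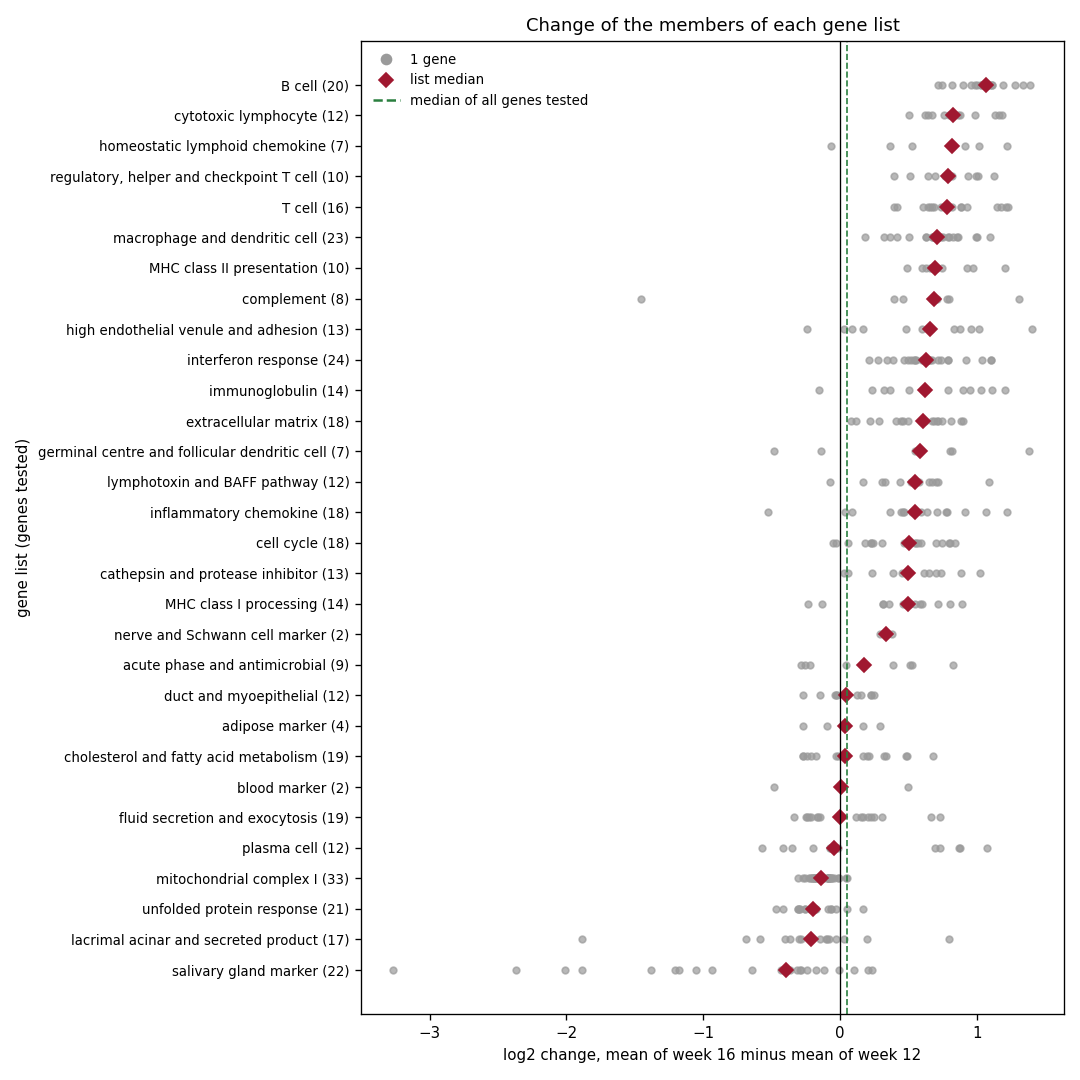
Log2 change (mean of week 16 minus mean of week 12) of each tested member of 30 gene lists as grey points, with the list median as a diamond and the median of all genes as a dashed line. Leukocyte, interferon, chemokine and matrix lists lie right of the dashed line, and complex I, unfolded protein response, lacrimal product and salivary lists lie left of it.

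Most genes of the acinar, secretory and complex I lists were slightly lower or level, and whole glands do not show in which cells. Of 17 lacrimal acinar and secreted products tested 14 had the lower mean (median -0.21) and none was called. The largest difference among the 17 was that of Scgb2b27, a secretoglobin, at -1.89 (SE 0.82, adjusted p = 0.143). It ran from 7.19 to 9.30 at week 12 and from 4.22 to 9.48 at week 16. Obp1a differed by -0.03, and Lpo, the lactoperoxidase of tears, by -0.29 between ranges of 15.05 to 15.37 and 14.03 to 15.29 (adjusted p = 0.205). Aqp5, the water channel of the apical acinar membrane, ran from 9.46 through 10.12 to 10.17 and from 9.12 through 9.57 to 9.83, a difference of -0.37 (SE 0.13, adjusted p = 0.101). Of 21 unfolded protein response genes 19 had the lower mean (median -0.20), and the largest difference was that of Sdf2l1, a chaperone partner, at -0.47 (adjusted p = 0.0865). Hspa5, the main chaperone of the endoplasmic reticulum, differed by -0.22 (adjusted p = 0.13). Of 33 complex I subunit genes 31 had the lower mean (median -0.14), Ndufb9 by -0.31 (adjusted p = 0.0846). Fluid secretion genes had a median of -0.00 and duct and myoepithelial genes of 0.04, which turned to -0.09 when arrays were centred on their median. Cholesterol and fatty acid genes (12 of 19 higher) and adipose markers (2 of 4 higher) each had a median of 0.04, which likewise turned to -0.09, acute phase and antimicrobial genes had a median of 0.18 (6 of 9 higher), and the nerve markers Mbp and Pmp22 differed by 0.29 and 0.38. Kcnn4, the calcium-activated potassium channel of the fluid secretion list, was higher by 0.73 (adjusted p = 0.0726). Sult1d1, a sulfotransferase, did not overlap between 4.37 to 5.48 and 3.34 to 4.33, a difference of -0.87 (adjusted p = 0.0569).

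Genes listed as salivary gland products had the widest differences and the least certain ones. Of 22 tested 19 had the lower mean (median -0.40), 8 by 2-fold or more, and none was called. Mucl1, a small mucin-like protein, ran from 8.63 through 9.15 to 10.68 at week 12 and from 3.67 through 4.87 to 11.06 at week 16, a difference of -3.27 (SE 1.0, limma adjusted p = 0.0816). Its week 16 values covered the whole range of week 12. Crisp3, a cysteine-rich secretory protein, differed by -2.01 (SE 0.93, adjusted p = 0.165), Bpifa2, a parotid product, by -2.37 (SE 2.34, adjusted p = 0.505), and Amy1 by -1.05 (SE 2.22, adjusted p = 0.771). At week 12 Crisp3 ran from 6.91 to 9.26, so it and Mucl1 were above the floor in every array, whereas Amy1 ran from 3.74 to 13.87. Whether Mucl1 and Crisp3 transcripts came from the lacrimal gland itself was not tested. The summed level of the listed genes that have a probe set of their own, on the log2 scale, ran from 15.14 to 16.45 at week 12 and from 14.07 to 17.16 at week 16. Lpo, given above as a tear product, had the highest mean of this list too. It ran from 15.05 to 15.37 at week 12 and from 14.03 to 15.29 at week 16. The lower end of the sum thus follows Lpo, and the sum is not a measure of salivary transcripts alone. The part of salivary transcripts in the results above was not tested beyond 2 fits. With a salivary transcript score as a covariate, 10 probe sets were called, 3 higher and 7 lower. Ptpro and 1427553_at were then not called. Mucl1, at -2.77 (limma adjusted p = 0.0356), and Scgb2b27, of the lacrimal product list, at -1.45 (adjusted p = 0.0417), were. Without the 4 arrays with Amy1 above 8, none was called by limma and 264 differed 2-fold at an unadjusted p under 0.05. In that smaller set Plaur differed by 1.05, St6gal1 by 1.10, Vapb by -1.01 and the alpha-globin probe set 1417714_x_at by -1.75, each with an adjusted p of 0.145. There the medians of the B cell, T cell and macrophage lists were 0.93, 0.78 and 0.70.

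Untreated and MOPC-21 mice were compared for their change between the weeks with an interaction term. None of 19964 probe sets was called (percent called 0), and 32 differed 2-fold at an unadjusted p under 0.05. Within untreated mice alone no probe set was called between the weeks and 684 differed 2-fold at an unadjusted p under 0.05, and within MOPC-21 mice alone none was called and 84 did so. All 10 called probe sets had the same direction in both kinds of mice. They were chosen on these same arrays pooled, so the shared direction is not independent support.

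The change in lacrimal glands was also set against that in salivary glands of controls at the same weeks (16 arrays) with an interaction term, which called 17 of 21520 probe sets (0.079%). The lacrimal change was the more positive in 11. St6gal1 changed by 1.23 in lacrimal and -0.05 in salivary glands, a difference of 1.27 (SE 0.18, limma adjusted p = 0.0015), and Plaur by 1.15 and 0.09, a difference of 1.06 (adjusted p = 0.0258). The alpha-globin probe set 1417714_x_at changed by -1.84 and -0.37, a difference of -1.47 (adjusted p = 0.0464). Other genes among the 11, named after their values were seen, included Naip5, Cst7 and Bcl2. Naip5, a sensor of bacterial flagellin, changed by 1.46 and -0.01, Cst7, a cystatin of cytotoxic cells, by 1.16 and -0.08, and Bcl2, the survival factor of lymphocytes, by 0.93 and -0.07. A probe set could enter this test through either gland, and one under the floor in salivary glands can change little there. The B cell list had salivary group means of 3.27 to 3.32, under the floor of 4. The lacrimal arrays are also those that gave the calls of St6gal1, Plaur and alpha-globin, so this is not independent support. Jchain changed by 0.69 in lacrimal and 0.88 in salivary glands, and that difference of -0.19 (SE 0.27) was not called (adjusted p = 0.715). Malat1, a nuclear non-coding RNA, changed by 0.45 in lacrimal glands, where its ranges of 11.75 to 12.16 and 12.27 to 12.54 did not overlap (adjusted p = 0.0103), and by 1.04 in salivary glands. Its 6 other lacrimal probe sets differed by -0.02 to 0.34.

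How many probe sets were called depended on single arrays, with the largest counts on leaving out arrays of week 12. Without MOPC-21 week 12 replicate 4 the count was 480, with 9 of 20 B cell, 6 of 11 cytotoxic and 4 of 16 T cell genes called higher, where 2.53% of all genes tested were. The count of probe sets was 277 without untreated week 12 replicate 4. It was 4 without untreated week 12 replicate 2 and also 4 without untreated week 16 replicate 2. With untreated week 12 replicates 2 and 3 both left out, limma called none and 29 differed 2-fold at an unadjusted p under 0.05. Plaur, St6gal1 probe set 1420927_at and the alpha-globin probe sets 1417714_x_at and 1428361_x_at were called in each of the 15 fits that left out 1 array, 1452757_s_at in 13, Vapb in 10, the beta-globin probe set in 6, 1442605_at in 4, and Ptpro and 1427553_at in 3.

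**Figure D5:**
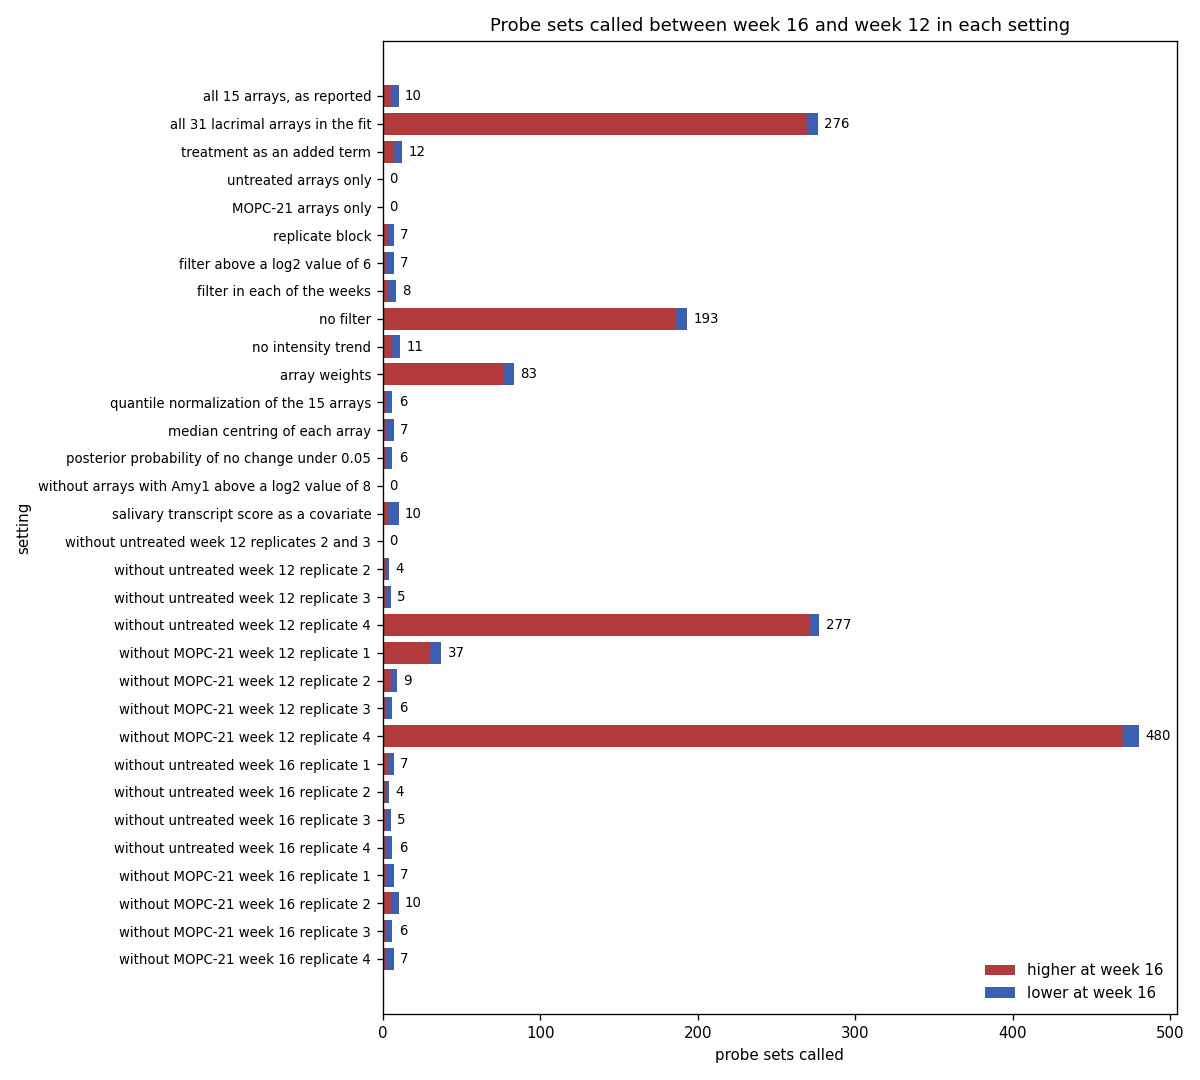
Probe sets called between week 16 and week 12 (bar length, from 0) in the fit of all 15 arrays, in 16 other settings and without each array in turn, divided into higher (red) and lower (blue). The count is 10 as reported, 480 without MOPC-21 week 12 replicate 4 and 0 in 4 of the settings with fewer arrays.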

How the data were processed

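RNA of lacrimal glands was labelled with the NuGEN Ovation kit and hybridised to whole-genome Affymetrix mouse arrays. The authors deposited log2 expression values per probe set made with GCRMA, whose version is not given in the sources used here. GCRMA subtracts background by probe sequence and normalises arrays by quantiles, so low values are compressed. Scan dates and scanner files were not used here.

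Groups came from the titles. Of 45101 probe sets, 34958 had 1 gene symbol, 932 several and 9211 were not listed, and symbols were updated through Entrez numbers to RefSeq on GRCm38.p6, the source of the promoter sequences. The 19964 probe sets that exceeded 4 on the log2 scale in 2 or more of the 15 arrays were tested with limma 3.58.1 in R 4.3.3 (lmFit, eBayes with an intensity trend, Benjamini-Hochberg adjustment), and a call needed a fold of 2 and an adjusted p under 0.05. Counts by gene take the brightest probe set that names that gene alone. Interaction terms compared the change by treatment and, with 16 salivary arrays, by tissue. The fit was tested on simulated data.

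Genes were chosen by rule as the called ones and those with the lowest p in each direction up to 10. The member of each list with the highest mean and that with the largest change were added. So were Glycam1, Cxcl13, Ms4a1, Cd3e, Ptprc, Amy1, Bpifa2 and Crisp3. Ccl19 was also to be added but had no probe set that named it alone. Not all of these are described. Left out were the rises of Atp6v1a (0.50, limma adjusted p = 0.0103), Cep164, Epb41l3 and Urb2. Also left out were the falls of Phkb, Ccdc58, Osbp2, Ggact, Shmt1, Rpf2, Vat1 and Klhdc3. Several members with the highest mean of a list, such as Ly86, Lyz1, H2-Aa and B2m, were left out too. Other list members were named for their role after their values were seen. The comparison, members and lists were chosen with earlier results of these data known. Alternatives changed the arrays, filter, scaling, weights, trend, covariates and call rule 1 at a time. The methods call the lacrimal samples biological replicates, and the number of arrays limits the precision.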

Additional observations from a re-analysis of the deposited data

Results flagged for a closer look

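Of 182 sets of values examined, 9 held an array that lay apart from the rest of its week, and chance alone gives some such arrays. At week 12, 1427553_at was 4.37 in untreated replicate 4 with the next array at 3.46, Igha was 15.2 in untreated replicate 3 (next 15), and Obp1a was 16.1 in the same array (next 15.6). MOPC-21 week 12 replicate 3 was low in Dcn, a matrix proteoglycan, at 9.77 (next 10.4) and in Pmp22, a myelin protein, at 5.53 (next 6.22). MOPC-21 week 16 replicate 3, the array with the highest first principal component, was low in Hspa5 at 13.5 (next 14), Lpo at 14 (next 14.8) and Sdf2l1 at 9.07 (next 9.69), and high in Vcam1 at 9.82 (next 9.1).

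The change between the weeks differed between lacrimal and salivary glands by the interaction term for 17 probe sets, given here as the log2 lacrimal change minus the salivary change. It was positive for St6gal1 (1.27), Plaur (1.06), Ptpro (1.06), Naip5 (1.47), Cst7 (1.23), Wfdc17 (1.24), Ap3m2 (1), Bcl2 (1), 1427553_at (1.13), 1442605_at (1.18) and 1447213_at (1.88). It was negative for the alpha-globin probe sets 1428361_x_at (-1.51), 1417714_x_at (-1.47) and 1452757_s_at (-1.39). It was also negative for Slco3a1, an organic anion transporter (-1.28), Upp2, a uridine phosphorylase (-1.11), and Fgf9, a growth factor (-1.06). For Slco3a1 and Upp2 the lacrimal changes were -0.01 and -0.07 and the salivary changes 1.27 and 1.04.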

How the results depend on the processing

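The 10 probe sets called became 276 with all 31 lacrimal arrays in the fit, 193 with no filter, 83 with array weights, 6 with quantile normalization and 6 by posterior probability. They became 0 in untreated arrays, in MOPC-21 arrays, without the arrays with Amy1 above 8, and without untreated week 12 replicates 2 and 3, a setting chosen after seeing the data. The 2 genes called became 136 with all 31 arrays, 98 with no filter, 40 with array weights, 4 with a treatment term, 4 with the salivary covariate and 0 in the same 4 settings. Leaving out 1 array gave 4 to 480 probe sets, 1 to 257 genes, 2 to 323 probe sets by tissue and 0 by treatment. A filter above 6 left 4 by tissue. The causes were not tested. Replicate numbers did not pair the arrays across weeks (correlations of deviations from -0.562 to 0.581). Between treatments, same-numbered arrays correlated at 0.233 to 0.746 at week 12 and at -0.218 to 0.131 at week 16. A replicate block called 7, 3 higher and 4 lower, without the beta-globin probe set, Ptpro and 1427553_at.

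Genes with small or unstable differences turned sign. In untreated arrays alone Car3 was -0.67, Adipoq -0.059, Amy1 1.49 and Bpifa2 0.63. In MOPC-21 arrays alone Obp1a was 0.074, Epcam -0.044 and Scd2 -0.038. Obp1a was 0.024 with array weights, 0.050 with quantile normalization and 0.069 without untreated week 12 replicates 2 and 3. With centring Epcam was -0.093 and Scd2 -0.10, and with the salivary covariate Amy1 was 0.017. Without 1 array Adipoq ran from -0.060 to 0.60, Amy1 from -2.33 to 0.019, Car3 from -0.40 to 0.50, Epcam from -0.0075 to 0.062, Obp1a from -0.061 to 0.052 and Scd2 from -0.0027 to 0.065. Values near the floor of 4 have compressed folds.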
